A study of Mus musculus with 14 samples.

Results

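The 5 genes described here encode the fat-digesting enzymes of pancreatic juice and their cofactor. They are Pnlip, Clps, Cel, Pnliprp1 and Pnliprp2, taken by gene symbol from the 52459 genes of the deposited count table, and all 5 were found. They were chosen by their earlier measured difference between the groups compared here. The study dispersed pancreatic islets of male C57BL/6J mice aged 7 months into cells, sorted these by flow cytometry on acidic beta-galactosidase activity, a lysosomal activity widely used as a marker of senescence, and sequenced their RNA. Cells with that activity gave 7 libraries (positive) and cells without it another 7 (negative). Both sets carry the numbers 1 to 7. The mice of both groups were of the same strain, sex and age, and the labels name no treatment. Nothing in the labels ties a number to an animal, so errors and p-values measure only how much these libraries vary, part of which may be technical.

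Pancreatic lipase, the product of Pnlip, splits dietary triglycerides in the gut. It needs colipase, the small protein encoded by Clps, to bind to fat droplets covered with bile salts. Cel encodes the bile-salt-activated carboxyl ester lipase, which acts on cholesterol esters and other lipid esters, and Pnliprp1 and Pnliprp2 encode relatives of pancreatic lipase. Acinar cells of the exocrine pancreas make these proteins. Endocrine islet cells are not their usual source, although exocrine tissue lies around every islet.

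The genes of Pnlip, Pnliprp1 and Pnliprp2 lie in a cluster on the plus strand of mouse chromosome 19 (GRCm38, GENCODE M21 annotation). Pnlip spans 58652498 to 58681788, Pnliprp1 58728887 to 58744169 and Pnliprp2 58759719 to 58777534, which together take up 125037 bases, with the pseudogene 1810018F18Rik and the non-coding AC102548.1 between Pnlip and Pnliprp1. Clps lies on the minus strand of chromosome 17 (28558149 to 28560766) and Cel on the minus strand of chromosome 2 (28555795 to 28563403). The coding sequence of Pnlip was identical to that of Pnliprp1 at 69.2% and to that of Pnliprp2 at 68.8% of aligned bases. The longest identical run was 23 bases with Pnliprp1 and 20 with Pnliprp2, shorter than a read of 50 bases. No stretch of 50 bases of any transcript of the 5 genes occurred in a transcript of another gene in GENCODE M21 (0 of 2129 stretches for Pnlip and 0 of 610 for Clps). The windows of 50 coding bases in which these 3 genes were most alike are shown because they bear on whether short reads could be told apart. Capitals mark the 12 positions at which the 3 did not all agree.
Pnlip, chr19:58673748-58673797, exon 5: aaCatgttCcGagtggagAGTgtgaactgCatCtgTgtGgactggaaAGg
Pnliprp1, chr19:58732024-58732073, exon 5: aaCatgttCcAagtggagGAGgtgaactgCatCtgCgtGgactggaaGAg
Pnliprp2, chr19:58762250-58762299, exon 4: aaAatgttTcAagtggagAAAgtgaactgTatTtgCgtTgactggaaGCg
Exon numbers count the exons of the longest coding transcript. Clps contains the microRNA gene Mir6969, which had 0 counts, and Cel overlaps Gm13381 on the opposite strand, which had 15 counts over all 14 libraries.

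Read counts in both groups were deep enough to place each gene, but thin for some of them in positive libraries. Total counts ranged from 15585779 to 24577025 reads in positive and from 11060144 to 23045934 reads in negative libraries. Over the 7 libraries of a group Pnlip had 866 reads in positive and 9253 in negative cells. Clps had 202 in positive and 2207 in negative cells. Pnliprp2 had 297 in positive and 809 in negative cells, with 2 reads in positive 6 and 6 in positive 7. All 5 genes passed the filter on low counts.

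All 5 transcripts were lower in the positive than in the negative library of each of the 7 numbered pairs. These differences were known when the 5 genes were chosen, so they are given as a description and were not tested as a finding. Being lower in all 7 pairs was not particular to the 5 genes. It held for 14 of 19 other acinar digestive enzymes tested, 3 of 16 acinar secretory proteins and receptors, and 1 of 10 beta cell markers. The share of all genes tested for which it held is not given here. Of 16350 genes tested by edgeR, 8.03% were called different at an adjusted p below 0.05, 6.4% as higher and 1.63% as lower in positive cells. Of the 5 genes 3 were called lower, Pnlip, Clps and Cel. In the fit that also held the replicate number as a block 19.6% of genes were called, 11.8% higher and 7.77% lower, and all 5 genes were among the lower ones. In bulk RNA, fewer cells of a type and less RNA per cell cannot be told apart.

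Pnlip, the lipase itself, had 0.565 CPM (reads of the gene scaled to a common library size with TMM factors) in the lowest positive library, 3.23 at the median and 24.8 in the highest. Negative libraries had 18.3, 39.0 and 194 CPM of it. Only positive 1 reached above the lowest negative library. The mean was 6.57 ± 8.40 CPM in positive and 77.1 ± 67.2 CPM in negative cells (SD, n = 7 each). On the log2 scale the fold change was −3.56 ± 0.79 (SE).

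Colipase, the cofactor, took the same form at a lower count. Clps had 0.283, 0.513 and 6.06 CPM in the lowest, median and highest positive library, and 5.16, 9.93 and 41.5 CPM in the negative ones. Positive 1 was again the only one of its group within the range of the negative libraries. The log2 fold change was −3.59 ± 0.76 (SE), close to that of the enzyme it serves.

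Cel, the carboxyl ester lipase, had 0.525, 3.75 and 25.1 CPM in positive and 15.2, 26.7 and 111 CPM in negative libraries (lowest, median and highest). The groups overlapped at positive 1 alone. Its log2 fold change was −2.79 ± 0.73 (SE).

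The lipase-related genes overlapped more between the groups. Pnliprp1 had 1.66, 3.33 and 38.7 CPM in positive and 9.60, 20.7 and 78.4 CPM in negative libraries. Positive 1, 2 and 5 lay above the lowest negative library. Pnliprp2 had 0.114, 0.718 and 10.4 CPM in positive and 1.38, 3.07 and 15.1 CPM in negative libraries, and 3 positive libraries were above the lowest negative one. Their log2 fold changes were −1.77 ± 0.74 and −1.58 ± 0.87 (SE), smaller in size than those of the other 3 genes.

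**Figure D1:**
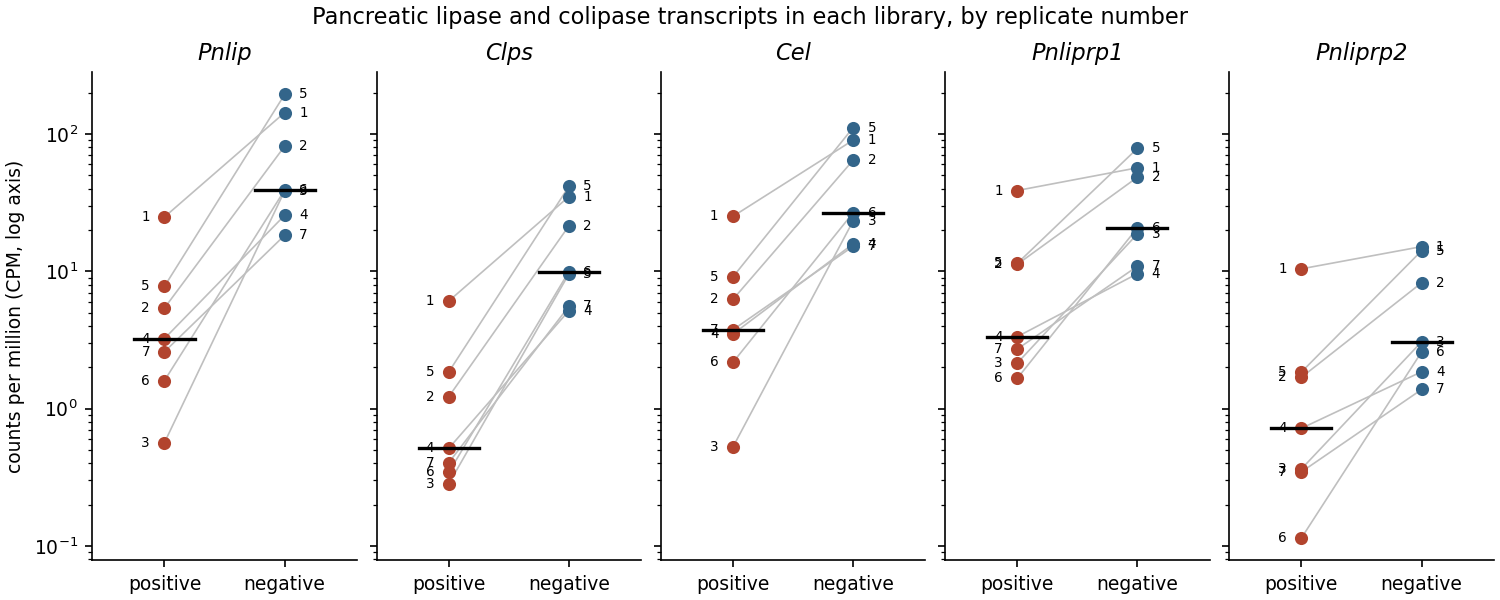
CPM (log axis) of the 5 genes in each library, positive left of negative, with grey lines joining libraries of the same number and black bars at the medians. Every line goes up from positive to negative, and positive 1 is the highest positive library in all 5 panels (24.8 CPM for Pnlip).

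Within pairs the size of the difference varied widely. Negative over positive, Pnlip differed 5.76-fold in pair 1, 68.1-fold in pair 3 and 15.1-fold at the median of pairs. For Clps the range was 5.77-fold (pair 1) to 33.8-fold (pair 3), with a median of 17.5-fold. For Pnliprp1 it was 1.46-fold (pair 1) to 12.5-fold (pair 6), with a median of 4.31-fold. Cel ranged from 3.59-fold (pair 1) to 44.3-fold (pair 3), and Pnliprp2 from 1.45-fold (pair 1) to 22.7-fold (pair 6). Pair 1 had the smallest difference for all 5 genes. Without positive 1 the log2 fold changes were larger in size, −4.49 for Pnlip, −4.61 for Clps, −3.60 for Cel, −2.70 for Pnliprp1 and −2.99 for Pnliprp2. Counts in positive 3 were 14 for Pnlip and 7 for Clps, so folds there rest on few reads.

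Per base of transcript, Pnlip was the most abundant of the 5 in negative cells. On the scale of CPM per kilobase of the longest coding transcript its median level was 26.2, above Clps (16.3) in 7 of 7 negative libraries. Clps was above Cel (12.9) in 7 of 7. Cel and Pnliprp1 (12.8) were close, with Cel higher in 6 of 7. Pnliprp2 came last at 1.95. In positive cells the top of this order was no longer clear. Median levels were 2.17 CPM per kilobase for Pnlip, 2.06 for Pnliprp1 and 1.82 for Cel, and Pnlip was above Pnliprp1 in only 3 of 7 positive libraries. Clps (0.840) was above Pnliprp2 (0.457) in 7 of 7. With the length of all annotated exons instead, the order in negative cells was the same, and in positive cells Cel came first (1.78), then Pnliprp1 (1.5) and Pnlip (1.47).

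Reads of Pnliprp1 and Cel per Pnlip read were higher in positive cells. Comparing 2 genes inside a library removes the effect of its depth and scaling. There were 1.03 to 3.79 Pnliprp1 reads per Pnlip read in positive libraries (median 1.47), against 0.376 to 0.595 in negative libraries (median 0.486). The 2 ranges did not overlap. Of the reads of both genes, Pnliprp1 made up 50.8% in positive 4, the lowest of its group (exact 95% binomial interval 41.8 to 59.7%, counting error only). In negative 7, the highest of its group, it made up 37.3% (33.5 to 41.3%). The intervals of positive 6 (50.9%, 37.3 to 64.4%) and positive 7 (51.1%, 40.4 to 61.7%) reached into that of negative 7. Those of the other positive libraries did not. Cel likewise had 0.929 to 1.44 reads per Pnlip read in positive and 0.573 to 0.831 in negative libraries, without overlap of these values. Their counting error did overlap. Cel made up 48.1% of the 27 reads of both genes in positive 3, the lowest of its group (28.7 to 68.1%). In negative 7, the highest of its group, it made up 45.4% (41.7 to 49.1%). How often other pairs of genes separate like this was not counted.

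Colipase kept step with lipase. Clps had 0.248 ± 0.117 reads per Pnlip read in positive and 0.247 ± 0.0333 in negative libraries (SD, n = 7 each). The value of positive 3, 0.5, rested on 7 Clps and 14 Pnlip reads. Pnliprp2 had 0.0714 to 0.643 reads per Pnlip read in positive and 0.0664 to 0.106 in negative libraries, and only positive 6, with 2 Pnliprp2 reads, lay inside the negative range. These ratios come from the same contrast by which the genes were chosen and are descriptions as well.

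**Figure D2:**
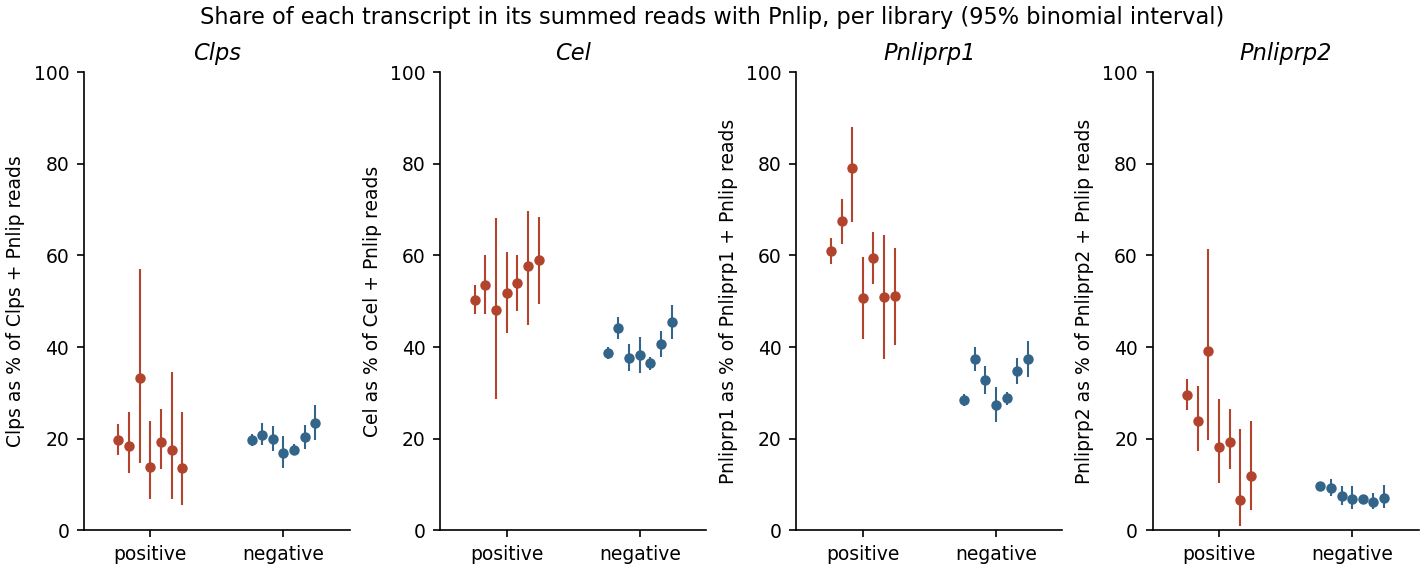
Each gene's reads as a percentage of its reads plus those of Pnlip, per library in order of replicate number, positive left of negative, with exact 95% binomial intervals. Pnliprp1 is at 50.8% or more in every positive and at 37.3% or less in every negative library, while Clps lies at like percentages in both groups.

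Among libraries of 1 group the 5 transcripts went up and down together, and this does not use the difference between groups. Over the 7 negative libraries log2 CPM of Pnlip correlated with that of Clps at Pearson r = 0.989 (Spearman rho = 0.964), Cel at 0.989 (1.00), Pnliprp1 at 0.976 (0.964) and Pnliprp2 at 0.987 (0.929). Over the 7 positive libraries r was 0.947 for Clps (rho = 1.00), 0.992 for Cel (0.964), 0.926 for Pnliprp1 (0.964) and 0.898 for Pnliprp2 (0.893). Each of these 8 relations passed an exact two-sided permutation test, with raw p of r from 0.000198 to 0.00734 and adjusted p from 0.00129 to 0.0119 over all 13 relations computed. For rho the raw p was 0.000397 to 0.0123, and the adjusted p 0.00258 to 0.0200. Without the 2 libraries farthest from the median of Pnlip, r was 0.959 to 0.985. In positive cells r was 0.84 for Pnliprp1 and 0.77 for Pnliprp2 without positive 1, and neither then had an adjusted p below 0.05. The 5 values of a point come from 1 library, whose depth and acinar content they share.

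Whether a library had much lipase RNA was partly shared with the library of the same number in the other group. Over the 7 pairs, r between positive and negative log2 CPM was 0.832 for Clps (exact permutation p = 0.0187, adjusted p = 0.0243) and 0.826 for Pnliprp2 (exact permutation p = 0.0183, adjusted p = 0.0243). It was 0.782 for Pnliprp1 (adjusted p = 0.0567, exact permutation), 0.691 for Pnlip (0.0871) and 0.691 for Cel (0.0862), which did not pass. Raw p for these 3 were 0.0480, 0.0871 and 0.0796 by the same exact permutation. Spearman's rho was 0.607 to 0.821, and passed after adjustment for Pnliprp2 alone (raw exact permutation p = 0.0341, adjusted 0.0493; the other 4 had raw p of 0.110 to 0.167 and adjusted p of 0.143 to 0.167). Without the 2 pairs farthest from the median negative value r was 0.632 for Clps, 0.621 for Pnliprp2 and 0.208 for Pnlip. For these genes they were pairs 1 and 5, whose negative libraries had the most of each transcript. These relations therefore rest in part on the pairs with the most lipase RNA in negative cells. Leaving out any pair but pair 5, the relation for Clps had an adjusted p above 0.05 (r 0.82 to 0.86 in 6 pairs), and that for Pnliprp2 did not pass without pair 1, 2, 3 or 7 (0.77 to 0.83).

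The 5 genes were among the most variable of the series within groups. The biological coefficient of variation that edgeR estimated was 0.882 for Cel, 0.900 for Clps, 0.907 for Pnliprp1, 0.926 for Pnlip and 1.08 for Pnliprp2, against a median of 0.154 over all genes tested. At most 1.02% of genes tested had a value as high as that of any of the 5. This was not particular to the 5 genes. Among other acinar enzymes it was 1.102 for Try4, 1.071 for Ctrb1, 1.045 for Cela2a and 0.945 for Cpa1. Rnase1 (0.552) and Amy1 (0.264) had lower values. Pnlip differed 43.9-fold between the lowest and highest positive library and 10.6-fold among negative libraries.

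The 8 genes most like the 5 were all acinar products. Likeness was the Pearson r, over 14 libraries, between a gene's log2 CPM less its group mean and the mean of the same over the 5 genes. The 8 highest of 16345 other genes were Cpa1 (0.997), Cpb1 (0.993), Prss2 (0.988), Cela2a (0.987), Ctrl (0.986), Zg16 (0.986), Cela3b (0.982) and Klk1 (0.981). Cpa1 and Cpb1 are carboxypeptidases, Prss2 a trypsin, Cela2a and Cela3b elastases, Ctrl a chymotrypsin-like protease, Klk1 a kallikrein and Zg16 a zymogen granule protein. Of the 30 most alike, 22 stood in the acinar lists. The values come from the same 14 libraries, whose acinar RNA varied, and say nothing of shared control. Of these 8 genes only Cpb1 was called lower in positive cells by edgeR without the block. DESeq2 also called Ctrl and Zg16 (adjusted p = 0.012 and 0.0332), and all 8 were called with the block. Of all genes tested 1.63% were called lower, and 7.77% with the block. Cpa1, the most alike, had 14.4 ± 20.1 CPM in positive and 60.5 ± 49.0 CPM in negative cells (SD, n = 7 each, log2 fold change −2.07 ± 0.79, adjusted p = 0.144, and 0.00669 with the block). Without positive 1 Cpa1 was called too, at −3.12.

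Of 31 other acinar digestive enzymes, 19 had enough counts to be tested. Where 1.63% of all genes tested fell in positive cells, 3 of these 19 did: Cpb1, Rnase1 and Amy2b. None was called higher, by edgeR with or without the block or by DESeq2, nor at an unadjusted p below 0.05 (0 genes), whereas 10 were lower at that unadjusted level. Without positive 1 the count that fell was 10, without negative 3 it was 6, and without negative 1, positive 6 or positive 7 it was 1. Over all genes, 386 of 16334 fell without positive 1 and 616 of 16607 without negative 3. Without negative 1, positive 6 or positive 7 it was 260 of 16378, 140 of 16587 or 162 of 16580. In the fit with the block 16 of the 19 fell, where 7.77% of all genes tested did. The median log2 fold change of the 19 was −2.04, against 0.000371 over all genes tested.

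Means below are given ± SD over 7 libraries of a group, and log2 fold changes ± SE. Pancreatic carboxypeptidase B, Cpb1, fell to 3.41 ± 4.44 CPM in positive cells, against 31.5 ± 27.7 CPM in negative cells (log2 fold change −3.22 ± 0.80, adjusted p = 0.0239). This call was lost without negative 1, positive 6 or positive 7 (highest adjusted p 0.0565). Rnase1, a secreted ribonuclease, fell by 2.04 ± 0.45 on the log2 scale (adjusted p = 0.00944) and kept its call without any 1 library. Amy2b, an amylase, fell by 2.62 ± 0.72 on that scale (adjusted p = 0.0358), a call lost without negative 1, 2 or 5, or positive 2, 3, 4, 6 or 7 (up to 0.0788). Amylase genes have near-identical copies, among which reads could be split. At the other end were the proteases with the most reads. Ctrb1, a chymotrypsinogen, had 100 ± 155 CPM in positive and 193 ± 171 CPM in negative cells (−0.94 ± 0.90, adjusted p = 0.605). Prss2 had 32.5 ± 48.4 CPM in positive and 68.7 ± 57.4 CPM in negative cells (−1.08 ± 0.85, adjusted p = 0.519). Cela1, an elastase, had 25.8 ± 24.4 CPM in positive and 61.7 ± 56.2 CPM in negative cells (−1.26 ± 0.73, adjusted p = 0.351). With the block Ctrb1 and Prss2 were called lower (adjusted p = 0.0280 and 0.0298) and Cela1 was not (0.0760). Without positive 1 the log2 fold changes were larger in size here too, −2.16 for Ctrb1, −2.24 for Prss2, −1.82 for Cela1, −4.17 for Cpb1 and −3.24 for Amy2b.

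**Figure D3:**
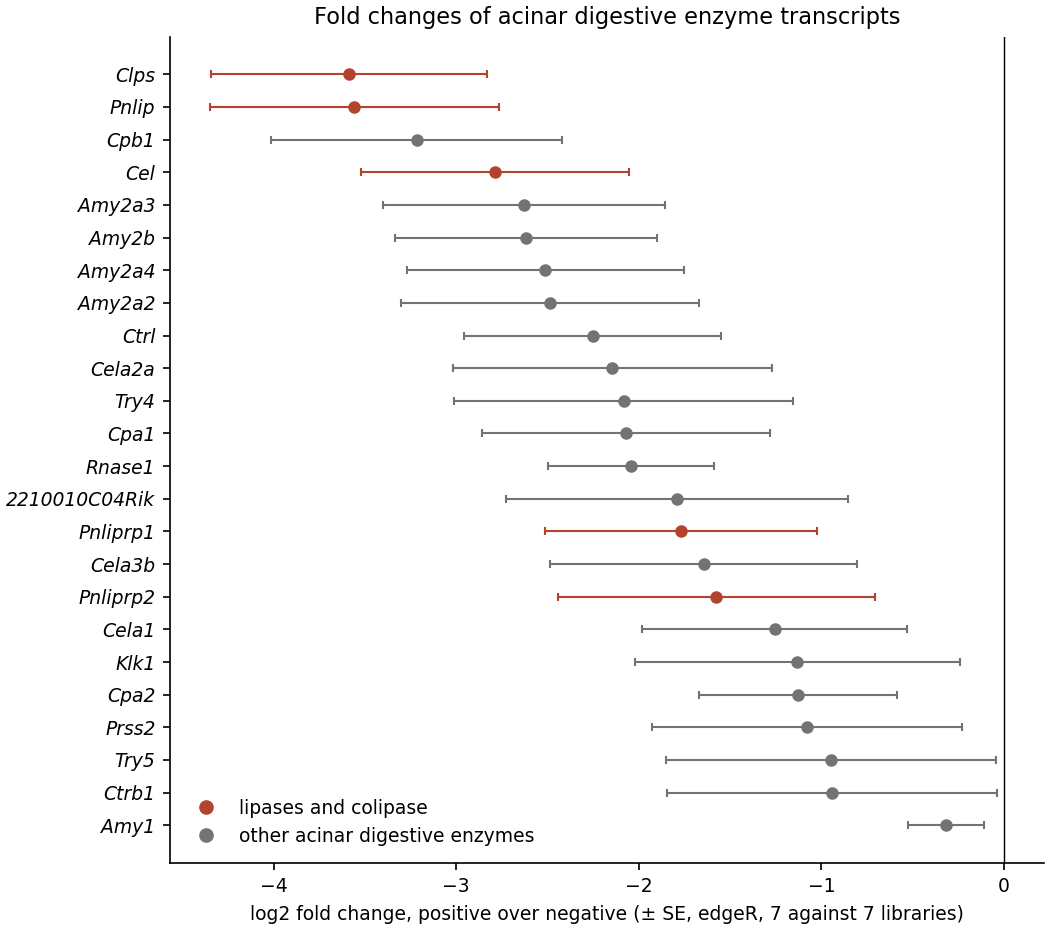
Log2 fold change, positive over negative, with SE from edgeR, of the 5 lipase and colipase genes (red) and the 19 other acinar digestive enzymes tested (grey), sorted by value. Clps (−3.59) and Pnlip (−3.56) stand at the most negative end, Pnliprp1 (−1.77) and Pnliprp2 (−1.58) among the proteases, and no point is above 0.

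In summed reads the lipase group was a smaller part of all acinar enzymes in positive cells. The 5 genes made up 8.54% to 12.8% of the reads of all 36 acinar digestive enzymes in positive libraries (median 10%), and 17.4% to 26.4% in negative libraries (median 23.2%). These shares use the values by which the 5 genes were chosen and are a description. Sums follow the genes with the most reads and do not hold for each gene. Pnliprp1 (log2 fold change −1.77) and Pnliprp2 (−1.58) fell less than the median of the other enzymes tested (−2.04). Pnlip, Clps and Cel fell more than that median, but Cpb1 (−3.22) fell more than Cel (−2.79). Leaving out Ctrb1, the enzyme with the most reads, the percentages were 12.6 to 16.1 in positive and 23.2 to 31.5 in negative libraries. Libraries of unlike groups had like amounts of the other enzymes: positive 1 had 1095 CPM of them and negative 2 had 1061 CPM, with 105 CPM of lipases in positive 1 and 224 CPM in negative 2. Positive 5 (286 CPM) and negative 3 (295 CPM) had 31.9 and 93.0 CPM of lipases.

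**Figure D4:**
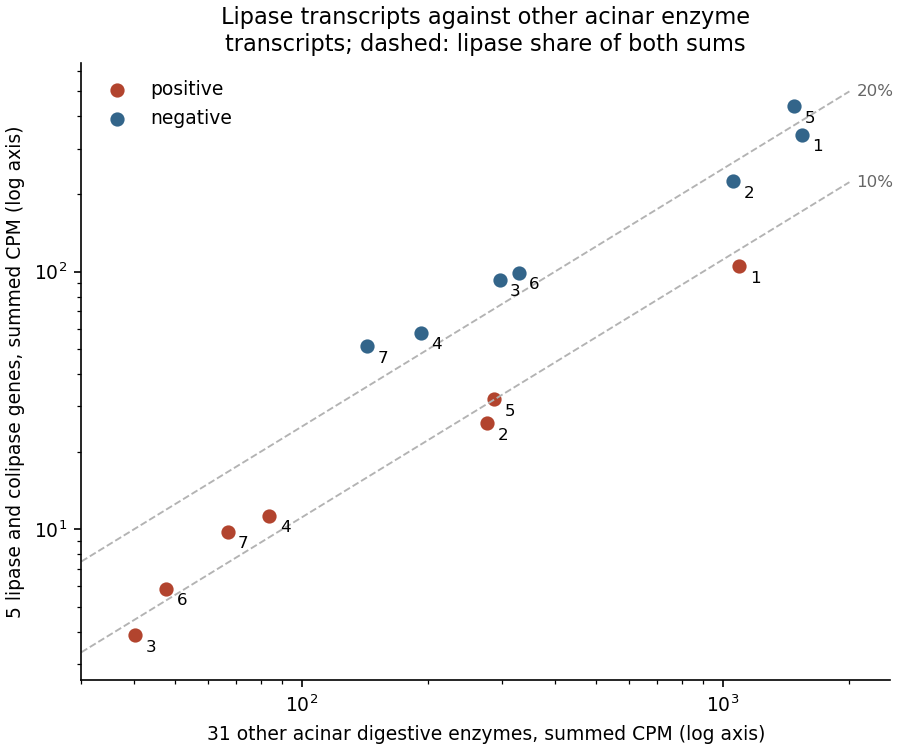
Summed CPM of the 5 lipase and colipase genes against summed CPM of the 31 other acinar digestive enzymes in each library, numbered by replicate, on log axes, with dashed lines where the lipases make up 10% and 20% of both sums. The positive libraries lie near the 10% line over their whole range (40.2 to 1095 CPM of other enzymes), and the negative libraries lie near or above the 20% line.

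Other acinar secretory proteins and receptors had smaller differences at the median, but the listed genes were mixed. Of 30 listed, 16 were tested. Of these, 1 fell and 1 rose, with a median log2 fold change of −0.17 (6 fell and 2 rose with the block). The share that rose was near that of all genes tested (6.4%), and 1.63% of all genes fell. With the block 11.8% of all genes rose and 7.77% fell. Cuzd1, a zymogen granule membrane protein, fell to 0.355 ± 0.226 CPM in positive cells, against 1.41 ± 1.20 CPM in negative cells (−2.01 ± 0.54, adjusted p = 0.0304), and it was no longer called with negative 1 or 5 or positive 3, 4 or 7 left out. Tmed6, a protein of early secretory transport, rose (0.42 ± 0.12, adjusted p = 0.0372), a call lost without positive 1, 5, 6 or 7 or any negative library but 1. Without positive 1 the count that fell was 6. Zg16 (−2.45), Gp2 (−1.66), Sycn (−1.59) and Tff2 (−1.45) had log2 fold changes within the range of the digestive enzymes. None of them was called by edgeR without the block on all 14 libraries. Zg16 was called by DESeq2 (adjusted p = 0.0332), and by edgeR without both libraries numbered 1 (0.0383) or with 1 single library left out. With the block Zg16, Gp2 and Sycn were called (edgeR adjusted p = 0.000343, 0.00146 and 0.0228) and Tff2 was not (0.102). Reg2 (−0.17), Reg3b (−0.13) and Spink1 (−0.03) were near 0. The most abundant members were Syt7, Nupr1 and Rab3d, which islet cells express too. Their log2 fold changes, −0.15, 0.33 and −0.17, did not pass (adjusted p = 0.198, 0.0904 and 0.391). Nupr1 and Rab3d were called with the block (0.00218 and 0.0285), Nupr1 also by DESeq2 and without positive 4, and Rab3d without positive 1.

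The core acinar transcription factors had very few reads. Ptf1a, the acinar master regulator, had 8 reads over all positive and 6 over all negative libraries, and its partner Rbpjl had 10 over positive and 8 over negative libraries, too few to test. Of 12 acinar transcription factors tested, 2 rose and none fell by edgeR without the block or by DESeq2 (1 was lower at an unadjusted p below 0.05, 3 fell with the block). Of all genes tested 6.4% rose and 1.63% fell, and 7.77% fell with the block. Nr5a2, a nuclear receptor of acinar and other cells, rose to 1.66 ± 0.82 CPM in positive cells, against 0.321 ± 0.197 CPM in negative cells (2.33 ± 0.41, adjusted p = 0.00131), opposite in direction to the lipases. Tcf12, a widely expressed partner of basic helix-loop-helix factors, rose by 0.27 (adjusted p = 0.0263), a call lost without negative 1, 2, 5 or 7 or positive 3, 4, 5, 6 or 7. Without positive 2, 1 factor fell. The most abundant, Xbp1, Creb3l2 and Creb3l1, had log2 fold changes of 0.01, 0.04 and 0.07, which did not pass (adjusted p = 0.952, 0.822 and 0.643).

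Lipases that are not made for digestion followed other patterns. Of 22 other lipases, esterases and their helpers tested, 3 rose and 1 fell, where 6.4% of all genes tested rose and 1.63% fell, and the median log2 fold change was 0.02. With the block 4 rose and 1 fell, where 11.8% of all genes rose and 7.77% fell. Ddhd1, a phospholipase, was the added gene that rose (edgeR adjusted p = 0.0449). Gpihbp1, which carries lipoprotein lipase across capillary endothelium, rose to 8.59 ± 4.01 CPM in positive cells, against 0.269 ± 0.370 CPM in negative cells (4.82 ± 0.57, adjusted p = 0.000115). Mgll, monoglyceride lipase, rose to 5.66 ± 3.43 CPM in positive cells, against 0.506 ± 0.404 CPM in negative cells (3.39 ± 0.49, adjusted p = 0.000377). Lipa, lysosomal acid lipase, rose to 29.3 ± 20.8 CPM in positive cells, against 9.39 ± 0.65 CPM in negative cells (1.63 ± 0.34, adjusted p = 0.00759). Lpl, lipoprotein lipase, fell to 169 ± 31.5 CPM in positive cells, against 239 ± 18.3 CPM in negative cells (−0.50 ± 0.10, adjusted p = 0.00443). Each of these 4 genes stayed called without any 1 library, but the sizes moved. Without the 4 libraries numbered 6 and 7 the log2 fold change of Lipa was 0.88 and that of Gpihbp1 6.54, and without negative 7 alone that of Gpihbp1 was 5.61. Macrophage and endothelial markers, given below, rose in the same libraries as Gpihbp1, Mgll and Lipa, and their part in these values was not tested. Pnpla8 and Nceh1, abundant intracellular lipases, had log2 fold changes of 0.02 and 0.00 (adjusted p = 0.919 and 0.996). The colipase-like gene Clpsl2, next to Clps, had 0 counts in all libraries.

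The tested genes next to the 5, most of them near Clps or Cel, had log2 fold changes near 0. Of 33 annotated genes within 100 kilobases, 12 were tested, with log2 fold changes of −0.34 to 0.09. On chromosome 19 only Hspa12a was tested (−0.13), and no gene within that distance of Pnlip was, members aside. None was called by edgeR, with or without the block, or by DESeq2, and 0 had an unadjusted p below 0.05.

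Markers of other cell types also differed between the same libraries. All 10 macrophage and all 10 endothelial markers rose in positive cells. Summed, macrophage markers ranged from 74.2 to 652 CPM in positive and from 17.1 to 22.7 CPM in negative libraries, and endothelial markers from 339 to 1170 CPM in positive and from 4.45 to 62.0 CPM in negative libraries. Beta cell markers, those of the main cell of the labelled tissue, summed to 99400 to 130000 CPM in positive and 103000 to 154000 CPM in negative libraries. Positive 6 and 7 had the most macrophage RNA, 652 and 463 CPM. Without the 4 libraries numbered 6 and 7 the log2 fold changes of the 5 genes were −3.54 (Pnlip), −3.53 (Clps), −2.79 (Cel), −1.67 (Pnliprp1) and −1.51 (Pnliprp2), each less than its SE from the value with all 14. Stellate and fibroblast markers summed to 38.5 to 240 CPM in positive and 15.6 to 1450 CPM in negative libraries, with the highest sum of each group in library 3. Without both libraries numbered 3 the log2 fold changes were −3.47 (Pnlip), −3.51 (Clps), −2.71 (Cel), −1.71 (Pnliprp1) and −1.52 (Pnliprp2). Of 15 acinar markers tested 3 fell (14 with the block), and their sum was 62.3 to 1070 CPM in positive and 181 to 1420 CPM in negative libraries. Over all genes tested, 6.4% rose and 1.63% fell, and with the block 11.8% rose and 7.77% fell. No ductal marker was called among 9 tested (2 were higher and 2 lower at an unadjusted p below 0.05, and DESeq2 called 2 lower), nor any of 10 beta cell markers (4 lower at that level, 0 by DESeq2). With the block 9 macrophage, 10 endothelial, 1 ductal and 0 beta cell markers were higher, and 1 ductal and 5 beta cell markers were lower. Of 3 delta cell markers 2 rose, of 8 stellate and fibroblast markers 3 rose, and of 5 alpha and 2 PP cell markers none was called (1 alpha marker lower at an unadjusted p below 0.05 and by DESeq2). No marker of these lists was at 0 in all libraries. The part of ductal, islet and other cells in the lipase values was not tested.

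The start regions of the 5 genes were compared for the letters of the PTF1 site, which joins an E-box to a TC-box and is known from acinar enzyme genes. The 250 bases before the start were read from the RefSeq promoter table (GRCm38.p6), which held 4 of the 5 genes and not Clps. Searched on both strands were CANNTG (E-box, found in 66.2% of 32851 promoters of that length), its form CACCTG (17.2%) and TTTCCC (TC-box, 21.9%). Every CACCTG is also a CANNTG. Cel held 4 CACCTG and 1 TTTCCC, Pnliprp2 held 1 CACCTG, Pnliprp1 held 2 E-boxes of other forms, and Pnlip held none of the 3. Cel and Pnlip are shown as the promoters with the most and the fewest matches, with CACCTG and TTTCCC, or their reverse complements, in capitals.
Cel, chr2:28563404-28563653, minus strand: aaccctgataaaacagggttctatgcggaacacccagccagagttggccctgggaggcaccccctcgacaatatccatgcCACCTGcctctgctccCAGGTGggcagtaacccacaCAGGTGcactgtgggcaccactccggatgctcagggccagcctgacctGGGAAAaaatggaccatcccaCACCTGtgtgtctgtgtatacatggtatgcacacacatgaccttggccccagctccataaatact
Pnlip, chr19:58670115-58670364, plus strand: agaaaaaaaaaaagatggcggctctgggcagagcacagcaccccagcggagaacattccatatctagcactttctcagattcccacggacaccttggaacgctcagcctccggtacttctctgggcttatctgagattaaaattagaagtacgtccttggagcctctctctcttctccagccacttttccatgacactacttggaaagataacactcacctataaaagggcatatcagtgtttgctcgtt
The Pnlip window ends at the start of its longest coding transcript, while 1 non-coding transcript in GENCODE M21 begins upstream of it. A match describes the letters of the window and is not a site.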

How the data were processed

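RNA of sorted islet cells was measured in 14 libraries. Per the labels' protocols, polyadenylated RNA was selected and libraries were made with a directional kit. Single reads of 50 bases were placed on GRCm38 with Subread and counted with featureCounts, per the labels and the series' design text. Tool versions, gene models, strand setting and how multi-mapping reads were counted are not given in the sources used here. Values were used as raw read counts per gene, as the authors deposited them, and 0 columns of the table belonged to no sample.

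The comparison used edgeR 4.0.16 under R 4.3.3 (filterByExpr, 16350 genes, TMM, robust quasi-likelihood F-test, group only, Benjamini-Hochberg adjustment over all genes, call below 0.05, two-sided). SE come from F and the log2 fold change. Log2 CPM used a prior count of 2. On simulated counts (7 against 7 libraries, 16193 genes) 80% of 2-fold and 96% of 4-fold changes were called. The changed genes (50 per fold) were drawn at random from all genes tested, whose median biological coefficient of variation was 0.154. That of the 5 genes was 0.882 to 1.08, so these percentages do not hold for genes as variable as they are. Same-numbered libraries deviated together from their group means (r 0.203 to 0.541 in 7 pairs, against a median of −0.125 for other pairs), so the numbers, taken from the titles, were held to pair the libraries. Only the fit with the block used this pairing. The main fit and the fits with libraries left out did not, so their SE and calls, kept or lost, ignore it. The SE of the log2 fold change of Pnlip was 0.79 without the block and 0.40 with it. Any 2 libraries of a group differed beyond counting noise (chi-square of at least 5.36 per degree of freedom), so all were kept as separate samples. Correlations used scipy 1.17.1, and coding sequences were aligned with Biopython 1.88. Binomial intervals cover counting error only, since reads are not independent molecules.

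The 5 genes and all lists were chosen with earlier results of these data known. Named from each list were the genes called (if 8 or fewer) and the 3 with the most CPM, and the 8 genes most like the 5. Alternatives were DESeq2 1.42.0, its size factors, no filter, the block, left-out libraries and, for correlations, a prior count of 0.5 and no TMM factor. Leaving out both libraries numbered 1 was added after the data were seen.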

Additional observations from a re-analysis of the deposited data

Results flagged for a closer look

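A single library lay far from the other 6 of its group, by Dixon's test, in 8 of the 22 groups of values examined. Chance alone flags about 1 in 20 groups only where values are normally distributed. The test used values without logs, and CPM of the 5 genes spread 21.5-fold (Clps) to 91.2-fold (Pnliprp2) among positive libraries. The number of flags therefore cannot be set against chance. On the log2 scale, where the test was not run, Pnlip was at 4.64 in positive 1, 2.98 in positive 5 and −0.57 in positive 3. The 5 genes also vary together, so the flags are not independent. Positive 1 was the highest positive library for Pnlip (24.8 CPM), Clps (6.06 CPM), Cel (25.1 CPM), Pnliprp1 (38.7 CPM) and Pnliprp2 (10.4 CPM), and for the other acinar digestive enzymes summed (1095 CPM). Its macrophage and endothelial marker sums, 106 and 529 CPM, were at the medians of the positive libraries.

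Positive 3 had the highest ratio of Clps to Pnlip reads (0.5) and of Pnliprp1 to Pnlip reads (3.79) among positive libraries. It also had the fewest reads of Pnlip (14) and Cel (13) of its group.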

How the results depend on the processing

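The log2 fold changes of the 5 genes stayed negative under every alternative. Under each that kept all libraries they moved by less than 1 pooled SD of log2 CPM within groups (1.33 for Clps to 1.63 for Pnliprp2). That margin is wide, and for Pnliprp2 it exceeds the size of the fold change itself (−1.58). With single libraries left out the log2 fold changes ranged from −4.49 to −3.16 (Pnlip), −4.61 to −3.27 (Clps), −3.60 to −2.48 (Cel), −2.70 to −1.46 (Pnliprp1) and −2.99 to −1.22 (Pnliprp2). With the replicate block they were −3.74, −3.82, −2.96, −2.12 and −2.07. The block moved the counts of calls over all genes to 1930 higher and 1270 lower, of other acinar enzymes to 16 lower, of secretory proteins to 2 higher and 6 lower and of transcription factors to 3 lower, against 1047, 266, 3, 1, 1 and 0 without it. DESeq2 called 499 genes lower, 6 other acinar enzymes lower, and 2 secretory proteins each way. Without a filter 0 secretory proteins were higher, 2 lower, and 1 transcription factor was higher. Without the libraries numbered 6 and 7, calls were 536 higher and 45 lower over all genes, 1 acinar enzyme lower, 0 secretory proteins either way and 0 transcription factors higher (Nr5a2 then missed the filter on low counts, as did Cuzd1 without both libraries numbered 1). Without those numbered 3, 0 secretory proteins were higher, and without those numbered 1, 8 acinar enzymes were lower. With single libraries left out, genes called ranged from 825 to 1267 higher (without positive 6 and negative 3) and from 140 (without positive 6) to 616 lower (without negative 3; 160 without positive 3, 162 without positive 7), acinar enzymes lower from 1 to 10, secretory proteins from 0 to 2 higher and from 0 to 6 lower, and transcription factors from 1 to 2 higher and from 0 to 1 lower. Leaving out 1 library, r with Pnlip was 0.98 to 1.00 (Clps), 0.98 to 0.99 (Cel), 0.96 to 0.99 (Pnliprp1) and 0.98 to 0.99 (Pnliprp2) in negative, and 0.89 to 0.99, 0.99 to 1.00, 0.84 to 0.98 and 0.77 to 0.99 in positive libraries. Between groups it was 0.57 to 0.77 (Pnlip), 0.82 to 0.86 (Clps), 0.57 to 0.78 (Cel), 0.76 to 0.82 (Pnliprp1) and 0.77 to 0.87 (Pnliprp2). Xbp1, Creb3l2 and Pnpla8, near 0 and not called, changed sign: Xbp1 without a filter (−0.01), without both libraries numbered 1 (−0.04) or without single libraries (−0.04 to 0.03), Creb3l2 without single libraries (−0.02 to 0.06), and Pnpla8 without both numbered 1 (−0.03) or single libraries (−0.04 to 0.04). The cause was not tested. Pnliprp2 had 2 to 36 reads in positive libraries other than positive 1, which limits the precision of its folds.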
